A study of Mus musculus with 8 samples.

Results

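The domains of H2A.X on mouse chromosomes 6 and 8 were examined in embryonic stem (ES) cells, in 6 lists that each set a pair of libraries against each other. A domain is a stretch, on a grid of 1 kb, that the authors marked as enriched in one library of the pair. Members were all domains on either chromosome that start after the first 3000 kb in the mm9 build, 3386 of the 25499 domains in the 6 lists. They came to 1380 of 10620 in the list of serum and 2i, 554 of 3220 in that of 2i and PKCi, 474 of 3760 in that of 2i and SRCi, 442 of 4130 in the DNMT1 list, 135 of 1385 in the TDG list and 401 of 2384 in the TKO list. The other 17 autosomes held 21207 domains. The chromosomes were selected on measured values, namely how much of them the 2i side covers in the 3 lists that name 2i, so 2i values in these lists are a description and support nothing. The DNMT1, TDG and TKO lists were not used in that choice.

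All cells were mouse ES cells, and all libraries came from native chromatin immunoprecipitation, in which unfixed chromatin is cut with micrococcal nuclease, with an antibody to H2A.X. Wild-type cells in 2i, PKCi or SRCi medium, and DNMT1 knockout (KO) cells in serum medium, are of strain 129S6/C57B6. TDG control and TDG knockdown (KD) cells, and TKO control and TKO cells, are of strain 129/Ola and were grown in serum medium, the controls being wild type. TKO is not spelled out in the labels. Fetal bovine serum made up 15% of the serum medium. Gö6976, which inhibits protein kinase C, was used at 5 µM in PKCi medium. CGP77675, which inhibits Src kinases, was used at 1.5 µM in SRCi medium, together with the GSK3 inhibitor CHIR99021 at 3 µM. The 2i medium was a commercial kit. Each of these 8 conditions had 1 library. The wild-type serum library and the DNMT1 control library enter only through their lists. No value below has a replicate check, no test between conditions is given, and read depth is unknown. Every direction rests on the order in which a list's name gives its libraries.

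H2A.X is a variant of histone H2A that sits in a fraction of nucleosomes throughout the genome and is phosphorylated where DNA breaks. The antibody here was to the variant, and not to its phosphorylated form, so the lists describe where the histone lies. ES cells in 2i, a medium that blocks MEK and GSK3 signalling, lose most of their DNA methylation. DNMT1 copies methylation onto new DNA strands, and TDG is a glycosylase that removes oxidised methylcytosine during active demethylation. In a bulk library, more H2A.X on each copy of a chromosome and more copies of that chromosome cannot be told apart, and the lists hold no input or copy number.

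Nearly every member of the lists that name 2i was marked as higher in 2i. On chromosome 6 these were 753 of 759 domains in the serum list, 316 of 320 in the PKCi list and 261 of 274 in the SRCi list. On chromosome 8 they were 603 of 621, 220 of 234 and 183 of 200. Over all chromosomes the 2i side held 57.9% of domains in the serum list, 21.5% in the PKCi list and 15.5% in the SRCi list. These shares are part of what chose the chromosomes, and nothing is read from them.

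The 2i side covered 69.4%, 52.1% and 59.5% of chromosome 6 in the serum, PKCi and SRCi lists. It covered 65.6%, 58.4% and 63.9% of chromosome 8. On the other 17 autosomes the same side covered between 3.35% (chromosome 7) and 10.1% (chromosome 19) in the serum list, at most 0.784% in the PKCi list and at most 1.05% in the SRCi list. The 3 lists may rest on 1 2i library and are given side by side, not as repeats of each other.

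**Figure D1:**
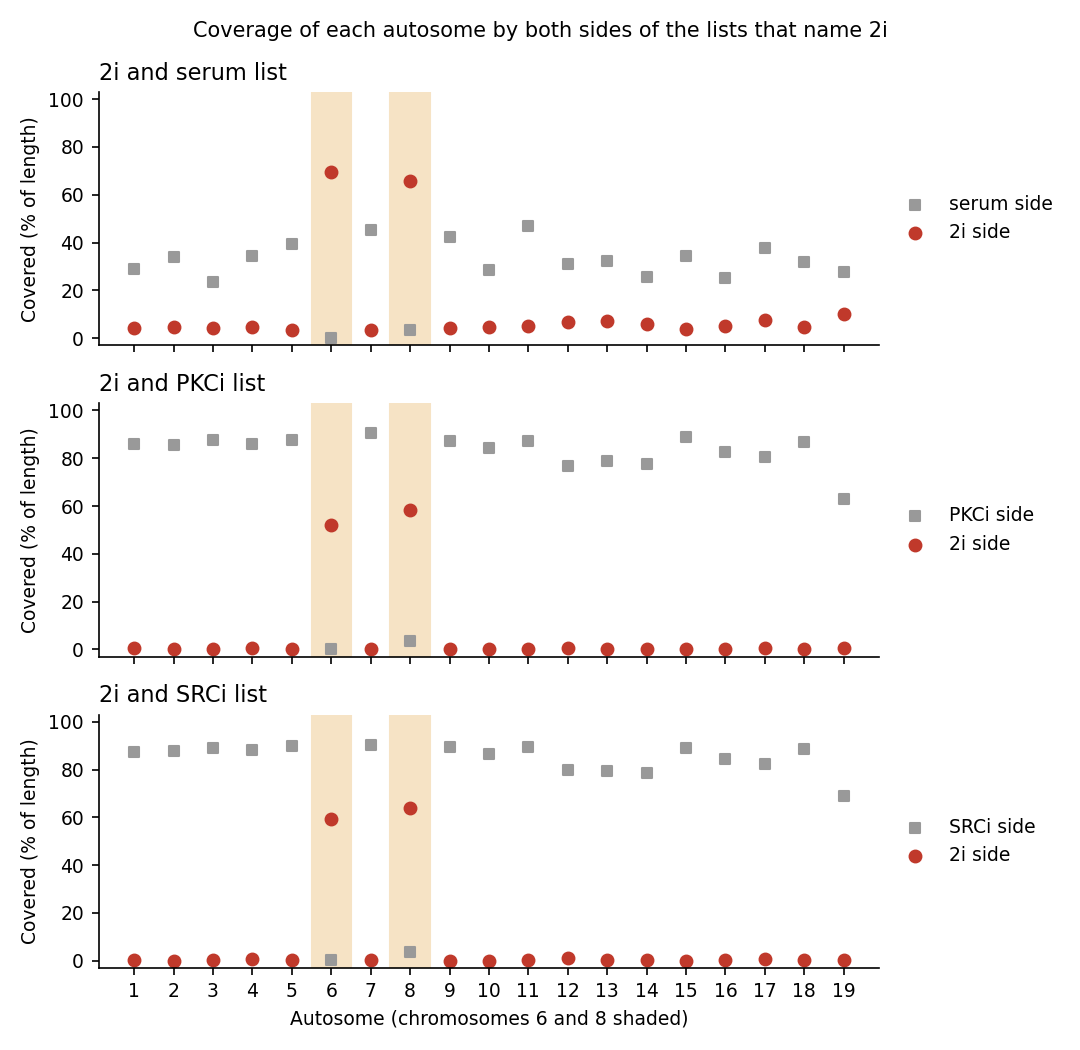
Share of each autosome's length (%), after the first 3000 kb, covered by the 2i side (circles) and by the opposite side (squares) in the 3 lists that name 2i, with chromosomes 6 and 8 shaded. On both shaded chromosomes the circle lies at 52.1% or above and the square at 3.69% or below, and on every other autosome the square lies above the circle.

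The side opposite 2i was nearly missing from both chromosomes. It covered 0.152% of chromosome 6 in the serum list, 0.138% in the PKCi list and 0.475% in the SRCi list. On chromosome 8 it covered 3.39%, 3.69% and 3.65%. Most of that length was a pair of blocks, chr8:20038001-22039000 of 2001 kb and chr8:56209001-57909000 of 1700 kb, whose signed scores lay within 0.05 of 0 in all 3 lists and which are called empty blocks here. Chromosome 6 had 1 such empty block, chr6:47637001-47687000 of 50 kb. The other 17 autosomes were covered by the serum side over 23.6% to 46.8% of their length, by the PKCi side over 62.9% to 90.4% and by the SRCi side over 69.0% to 90.4%.

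What was left on chromosomes 6 and 8 lay on neither side. Neither side held 30.5%, 47.8% and 40.03% of chromosome 6 in the serum, PKCi and SRCi lists, and 31.0%, 37.9% and 32.4% of chromosome 8. The median over the other 17 autosomes was 62.0% in the serum list, where most of a chromosome is unmarked, and 13.5% and 12.3% in the PKCi and SRCi lists, where the opposite side fills it. On chromosomes 6 and 8 the 3 lists therefore divide the sequence into 2i and unmarked stretches, and elsewhere mostly into unmarked and opposite stretches.

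At the boundary of the rule, the 6 domains just outside it start at position 1, cover the first 3000 kb (3070 kb in the SRCi list on chromosome 8) and have signed scores between 0 and 0.181. They are marked for serum, PKCi or SRCi. The first member inside it on chromosome 6 in the serum list takes up the next 82 kb and is marked for 2i, with a signed score of -17.8. The first 10 kb of that stretch are a domain of DNMT1 KO, TDG control and TKO in the other lists. On chromosome 8 the first members are chr8:3097001-3297000, marked for 2i in the serum and PKCi lists, and chr8:3109001-3276000, marked for 2i in the SRCi list.

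The 2i domains of these chromosomes were long. Their median length on chromosome 6 was 44 kb, 117.5 kb and 138 kb in the serum, PKCi and SRCi lists, and on chromosome 8 it was 48 kb, 119.5 kb and 129 kb. On the other 17 autosomes the 2i domains had medians of 11 kb, 25 kb and 27 kb. Very short domains, of 10 kb or less, made up 14.3% and 14.4% of the 2i domains of chromosomes 6 and 8 in the serum list, against 48.6% on the other autosomes.

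Domains of 500 kb or longer, a length chosen after the values were seen, were found on the 2i side of these chromosomes alone among the autosomes. Chromosome 6 held 42, 38 and 48 of them in the serum, PKCi and SRCi lists, chromosome 8 held 42, 29 and 29, and the other 17 autosomes held 0 in each list. They made up 41.4%, 49.6% and 64.0% of the 2i length on chromosome 6 and 49.0%, 66.8% and 73.3% on chromosome 8. The longest on chromosome 6 were chr6:105443001-108505000 of 3062 kb in the serum list, chr6:13757001-16225000 of 2468 kb in the PKCi list and chr6:43942001-47326000 of 3384 kb in the SRCi list. On chromosome 8 they were chr8:50926001-53008000 of 2082 kb, chr8:98885001-104635000 of 5750 kb and chr8:98566001-106325000 of 7759 kb.

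Between 2i domains the gaps were short as well. The median gap on chromosome 6 was 34 kb, 122 kb and 159 kb in the serum, PKCi and SRCi lists, and on chromosome 8 it was 37 kb, 124 kb and 131 kb. On the other autosomes it was 208 kb, 3825.5 kb and 2119 kb. The serum list thus held many domains set close together, and the other lists fewer, longer ones.

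The height of the 2i domains did not set these chromosomes apart in the way that their length did. The signed score is the authors' own, has no stated unit, and is given here as its size toward 2i. Among 2i domains of 11 to 100 kb, the median was 18.97, 15.5 and 16.3 on chromosome 6 in the serum, PKCi and SRCi lists, 19.1, 15.2 and 16.4 on chromosome 8, and 18.6, 15.6 and 17.8 on the other 17 autosomes. Among domains of 10 kb or less in the serum list, it was 22.7 on chromosome 6, 22.3 on chromosome 8 and 24.8 on the other autosomes. For lengths between 100 and 500 kb, the serum list had medians of 19.8 on chromosome 6, 19.6 on chromosome 8 and 18.4 elsewhere. Both chromosomes were instead lower than elsewhere in the PKCi list (14.5, 14.7 and 14.9) and the SRCi list (15.1, 15.4 and 15.9). Domains of 500 kb or longer had medians of 19.5, 13.7 and 14.4 on chromosome 6 and 20.3, 14.2 and 14.9 on chromosome 8, with no such domain elsewhere to set beside them. Only stretches already marked as domains have a score, so heights may be alike in part because of the marking, which was not tested.

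Along each chromosome the 2i coverage was uneven. In windows of 5 Mb, 21 of 29 windows of chromosome 6 were at least 50% covered by the 2i side in the serum list, 14 in the PKCi list and 17 in the SRCi list. Of the 26 windows of chromosome 8, 19, 17 and 19 were. Over all 483 windows of the 19 autosomes the shares were 8.28%, 6.42% and 7.45%, and no window of the other 17 autosomes was among them. In every one of the 29 and 26 windows the 2i side covered more than the opposite side in all 3 lists.

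Coverage of single 5 Mb windows ranged from 30.4% to 98.9% on chromosome 6 in the serum list, from 16.7% to 95% in the PKCi list and from 21.2% to 94.8% in the SRCi list. On chromosome 8 the ranges were 18.6% to 96.3%, 13.4% to 92.8% and 13.7% to 95.6%. The 3 highest windows of chromosome 6 by the mean of the 3 lists were chr6:103000001-108000000 at 93.8%, chr6:43000001-48000000 at 93.7% and chr6:13000001-18000000 at 92.5%. The 3 lowest were chr6:143000001-148000000 at 23.6%, chr6:48000001-53000000 at 23.6% and chr6:123000001-128000000 at 30.9%. The window at 48 Mb follows directly on one of the highest, so neighbouring windows had 93.7% and 23.6%.

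On chromosome 8 the 3 highest windows were chr8:38000001-43000000 at 94.9%, chr8:58000001-63000000 at 91.5% and chr8:98000001-103000000 at 90.6%. The 3 lowest were chr8:123000001-128000000 at 15.4%, chr8:118000001-123000000 at 17.8% and chr8:8000001-13000000 at 21.5%. The first and second of these adjoin each other near the distal end.

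The TDG list, which the choice of the chromosomes did not use, had opposite extremes in the same windows. TDG KD domains covered 78.0%, 87.7% and 73.2% of the 3 lowest 2i windows of chromosome 6, in the order given, and 8.52%, 0% and 0% of the 3 highest. On chromosome 8 they covered 98.3%, 93.1% and 77.9% of the 3 lowest and 0%, 0% and 9.66% of the 3 highest. The DNMT1 control side did not part them in this way on chromosome 6, at 62.6%, 36.6% and 53.9% of the lowest and 58.9%, 22.7% and 47.9% of the highest. On chromosome 8 it covered 77.1%, 90.1% and 94.6% of the lowest and 33.1%, 48.5% and 56.8% of the highest.

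**Figure D2:**
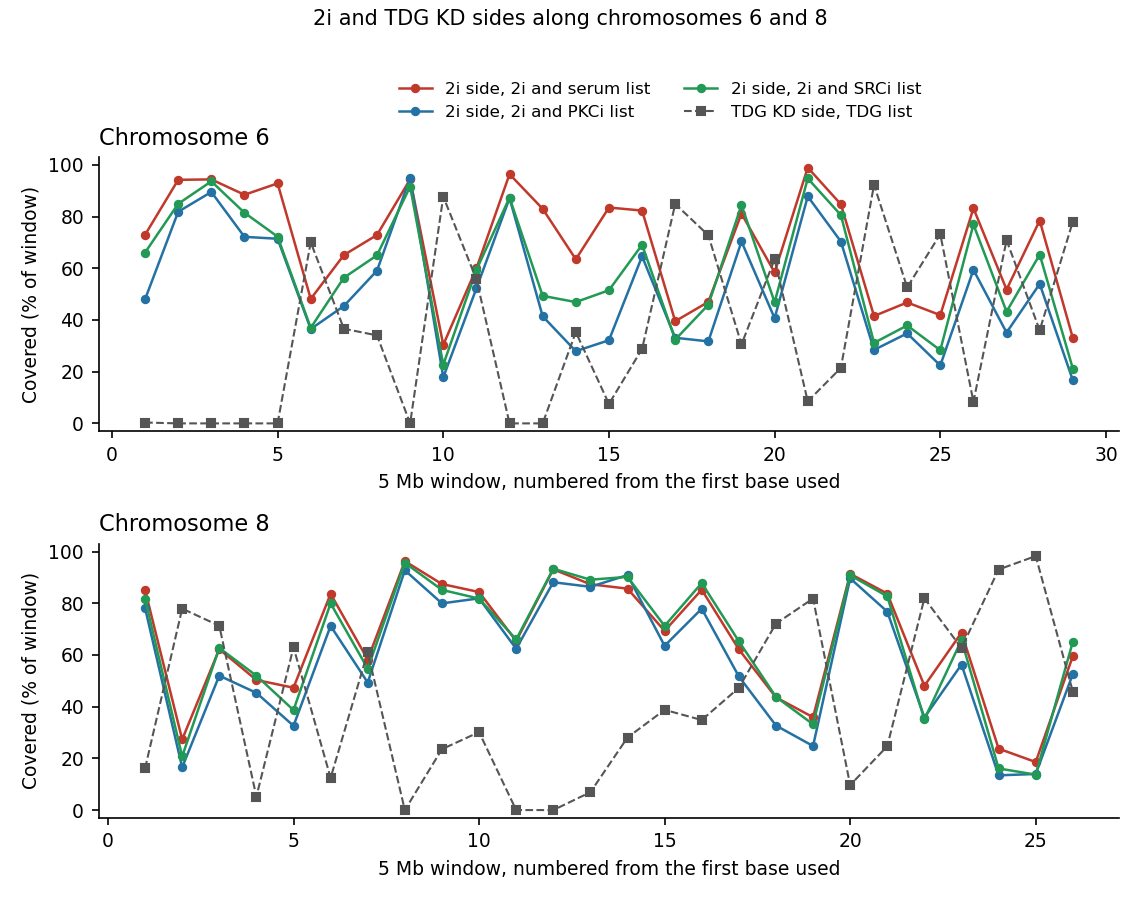
Share of each 5 Mb window (%) covered by the 2i side in the 3 lists that name 2i (circles) and by the TDG KD side of the TDG list (squares, dashed), against the number of the window counted from the first base used, for chromosome 6 above and chromosome 8 below. Many windows high in 2i are low in TDG KD, as window 8 of chromosome 8 (TDG KD 0%), and the reverse holds in window 10 of chromosome 6 (87.7%), but in window 13 of chromosome 6 TDG KD is 0% and the PKCi and SRCi lists have 41.4% and 49.3%.

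The 3 lists kept close to each other on chromosome 8 and parted on a stretch of chromosome 6. Because they may share a 2i library, closeness between them is a description only. The median difference of the serum list minus the PKCi list over 5 Mb windows was 15.3 percentage points on chromosome 6 and 7.17 on chromosome 8, and of the serum list minus the SRCi list 8.78 and 0.84. The largest differences from the PKCi list on chromosome 6 were in chr6:73000001-78000000, where the 2i side covered 83.5%, 32.2% and 51.5% in the serum, PKCi and SRCi lists. Its neighbours chr6:63000001-68000000, at 83.0%, 41.4% and 49.3%, and chr6:68000001-73000000, at 63.5%, 27.9% and 46.9%, came next. On chromosome 8 the largest difference from the PKCi list was 14.7 points, in chr8:23000001-28000000.

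The longest stretches that lay on the 2i side in all 3 lists carried neither TDG KD nor DNMT1 KO domains. On chromosome 6 they were chr6:43949001-46022000 of 2073 kb, chr6:61062001-62752000 of 1690 kb and chr6:105473001-107120000 of 1647 kb. On chromosome 8 they were chr8:50926001-53008000 of 2082 kb, chr8:38170001-40195000 of 2025 kb and chr8:100706001-102635000 of 1929 kb. TDG KD and DNMT1 KO covered 0% of each of the 6. Among the high windows of 1 Mb defined below, TDG KD was also 0% in 45 of 57 on chromosome 6 and 43 of 58 on chromosome 8. DNMT1 KO was 0% in 42 of 57 and 45 of 58. The 0% values therefore do not set the 6 stretches apart from high windows in general. DNMT1 control covered between 45.4% and 82.0% of each stretch, and TKO control between 19.5% and 71.2%.

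Windows of 1 Mb were then put in 3 classes by the mean 2i coverage of the 3 lists, low (under 25%), high (75% or more) and between. Chromosome 6 had 19 low, 71 between and 57 high windows of 147, and chromosome 8 had 23, 48 and 58 of 129. Over the 2416 windows of the 19 autosomes 4.76% were high, all of them on these chromosomes, and 90% were low. High windows formed long runs. The longest on chromosome 6 was chr6:8000001-22000000, 14 windows with a mean 2i coverage of 89.6%, and on chromosome 8 chr8:58000001-67000000, 9 windows with 92.7%.

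Low windows formed few runs of 3 or more. Chromosome 6 had 1, chr6:143000001-146000000, with a mean 2i coverage of 12.9%. Chromosome 8 had 3, chr8:10000001-13000000 at 13.3%, chr8:120000001-125000000 at 4.99% and chr8:126000001-129000000 at 19.5%. TDG KD covered 80.5% of the run on chromosome 6 and 100%, 100% and 97.1% of those on chromosome 8.

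TDG KD domains filled the low windows and were scarce in the high ones. The TDG KD side held 53 of the 73 TDG-list domains of chromosome 6 and 43 of the 62 of chromosome 8, against 67.5% of that list's domains on all chromosomes. It covered 35.8% of chromosome 6, the 6th highest of the 19 autosomes, and 41.8% of chromosome 8, the 3rd highest, with the others between 17.5% and 50.4%. For the TDG list, then, these were not outlying chromosomes. Its longest domains there were chr6:124340001-128417000 of 4077 kb and chr8:119068001-126061000 of 6993 kb, both lying mostly in the lowest 2i windows named above.

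Mean TDG KD coverage was 91.3% in low, 45.8% in between and 4.56% in high windows of chromosome 6. On chromosome 8 it was 79.6%, 64.2% and 8.002%. Windows at least 50% covered by TDG KD numbered 19 of 19, 35 of 71 and 0 of 57 on chromosome 6, and 19 of 23, 32 of 48 and 4 of 58 on chromosome 8, against 30.7% of all autosomal windows. On chromosome 6 the low and high classes did not overlap, since the lowest low window had 71.3% and the highest high window 47.6%. On chromosome 8 the 4 low windows without TDG KD were those that lay mostly in the empty blocks, where it covered 0% of each. The other 19 had a mean of 96.3% and a lowest value of 67.2%.

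The high windows of chromosome 8 with TDG KD over 50% were exceptions, named here after their values were seen. They start at 16000001, 34000001, 49000001 and 81000001, with TDG KD coverage of 65.7%, 51.5%, 50.8% and 95.6%. The last, chr8:81000001-82000000, was at the same time covered by the 2i side to 82%, 63.8% and 90.8% in the serum, PKCi and SRCi lists.

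**Figure D3:**
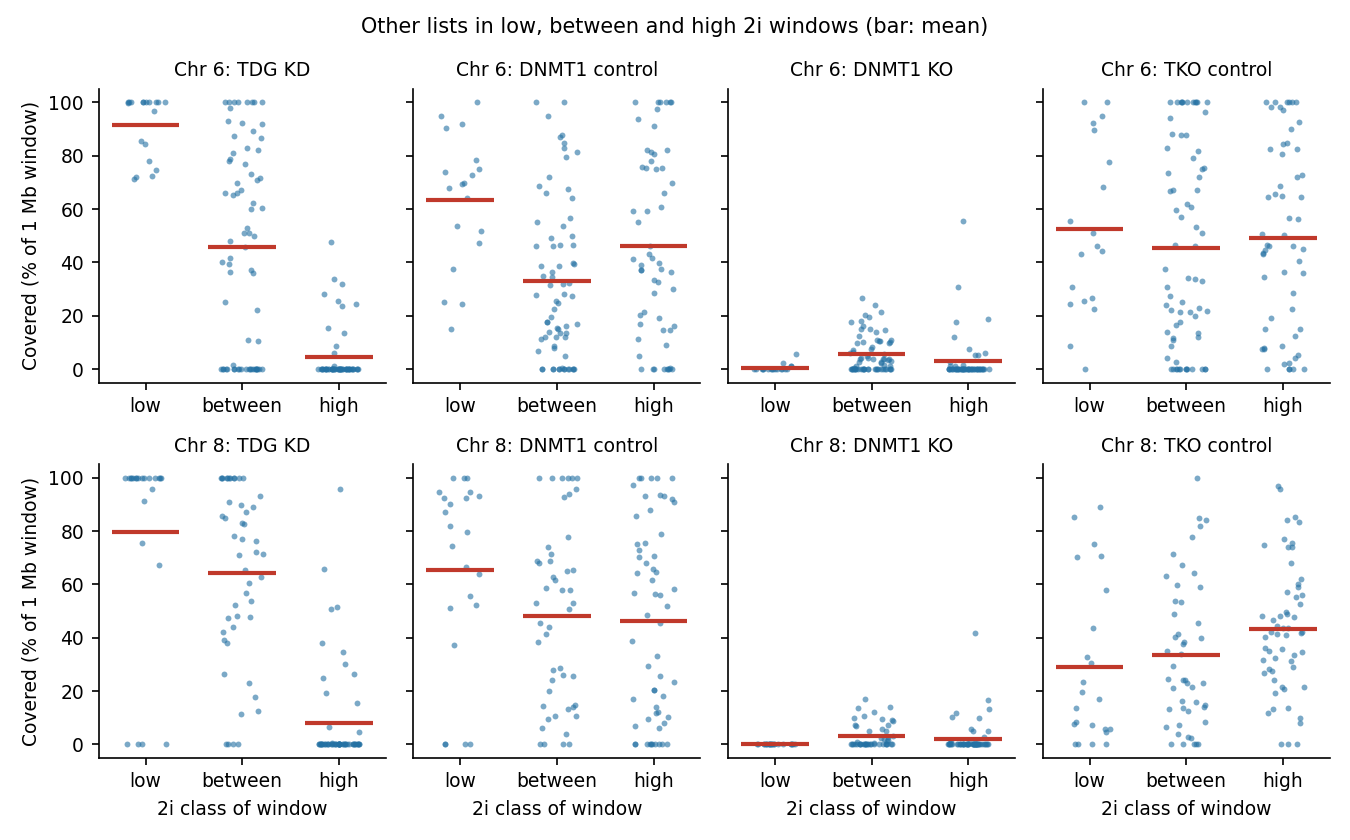
Share of each 1 Mb window (%) covered by TDG KD, DNMT1 control, DNMT1 KO and TKO control domains, for windows of low, between and high 2i coverage on chromosomes 6 (above) and 8 (below), where a point is a window and the bar is the mean. TDG KD has means of 91.3% in low and 4.56% in high windows of chromosome 6, and 4 points at 0 among the low windows of chromosome 8 lie in its empty blocks.

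The DNMT1 control side had higher means in low than in high windows on both chromosomes, with a smaller difference. The DNMT1 list had 245 members on chromosome 6, 95 of them marked for DNMT1 KO, and 197 on chromosome 8, 63 of them marked for DNMT1 KO, against 36.2% over all chromosomes. Chromosome 6 was covered by DNMT1 control over 42.1% of its length and chromosome 8 over 50.5%, the highest of all autosomes by a small margin, with the others between 36.2% and 50.5%. Mean DNMT1 control coverage was 63.3%, 32.9% and 46.2% in low, between and high windows of chromosome 6, and 65.5%, 48.3% and 46.2% on chromosome 8. Without the 4 low windows of chromosome 8 in empty blocks, which had 0%, the low mean there was 79.3%, and the difference of high minus low windows was -33.1 instead of -19.3 points. It reached 50% in 14 of 19, 18 of 71 and 24 of 57 windows of chromosome 6 and in 18 of 23, 25 of 48 and 29 of 58 of chromosome 8, against 45% of all autosomal windows. Single windows spread from 0% to 100% in the high class of both chromosomes, so the classes overlapped. In other settings the difference of high minus low windows ran from -46.0 to -4.99 points on chromosome 6 and from -42.8 to -5.99 on chromosome 8. The value of -5.99 comes from stricter classes, whose low windows on chromosome 8 include some that lie mostly in empty blocks.

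DNMT1 KO domains were short and few, and most of their length lay inside the 2i domains. Their median length was 48 kb on chromosome 6 and 35 kb on chromosome 8, and 44 kb on the other 17 autosomes. They covered 3.99% of chromosome 6 and 2.18% of chromosome 8, the lowest of all autosomes, where the others ran from 2.19% to 5.68%. Of the 95 on chromosome 6, 94 met a 2i domain of the serum list by at least 1 base, as did 63 of 63 on chromosome 8. By length, 96.9%, 89.8% and 95.1% of DNMT1 KO bases on chromosome 6 lay on the 2i side of the serum, PKCi and SRCi lists, and 96.7%, 93.6% and 93.3% on chromosome 8. The 2i side itself held 69.4%, 52.1% and 59.5% of chromosome 6 and 65.6%, 58.4% and 63.9% of chromosome 8. On the other autosomes 43.5%, 3.51% and 3.75% of DNMT1 KO bases lay on the 2i side, which held 4.93%, 0.288% and 0.296% of those autosomes. Because the 2i side fills most of chromosomes 6 and 8, the share of DNMT1 KO bases has little room to exceed it there. These shares therefore cannot rank chromosomes 6 and 8 against the other autosomes.

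DNMT1 KO domains did not gather in the windows of highest 2i coverage. Any DNMT1 KO base was found in 4 of 19 low, 45 of 71 between and 15 of 57 high windows of chromosome 6, and in 0 of 23, 23 of 48 and 13 of 58 of chromosome 8. The means were 0.547%, 5.78% and 2.91% on chromosome 6 and 0%, 3.25% and 2.15% on chromosome 8. On both chromosomes windows of intermediate 2i coverage thus held the most. The 23 low windows of chromosome 8 include the 4 that lay mostly in empty blocks, and the other 19 had 0% as well. Over all 19 autosomes DNMT1 KO covered 3.67% of the length. The share of all autosomal windows with any DNMT1 KO base was not computed, so the counts are a description.

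A few high windows, named after their values were seen, were exceptions. The window chr6:33000001-34000000 was covered by DNMT1 KO to 55.5%, and holds the longest DNMT1 KO domain of either chromosome, chr6:33211001-33705000 of 494 kb. The windows chr6:130000001-131000000 and chr8:75000001-76000000 followed with 30.8% and 41.6%. The latter holds the longest DNMT1 KO domain of chromosome 8, chr8:75295001-75569000 of 274 kb.

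The short TDG control domains also lay mostly inside the 2i domains. There were 20 on chromosome 6 and 19 on chromosome 8, each with a median length of 5 kb. Of these, 17 and 17 met a 2i domain of the serum list, which held 95.5% and 95.02% of their bases and 69.4% and 65.6% of the chromosomes. None lay in the 19 low windows of chromosome 6 or the 23 of chromosome 8. Most other windows held none either, namely 63 of 71 between and 50 of 57 high windows of chromosome 6. On chromosome 8 these were 39 of 48 and 52 of 58, so their absence from low windows says little. On the other autosomes 59.1% of TDG control bases lay on the 2i side of that list, which held 4.93% of those autosomes.

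The unmarked stretches of chromosomes 6 and 8 were covered by TDG KD about as much as the serum side is on other autosomes. This comparison, chosen after the values were seen, leaves out the empty blocks and divides each chromosome into the 2i side, neither side and the opposite side of 1 list at a time. In the serum list, TDG KD covered 19.8% of 2i bases and 72.5% of unmarked bases of chromosome 6, and 24.7% and 81.7% on chromosome 8. On the other 17 autosomes it covered 6.75% of 2i bases, 12.5% of unmarked bases (6.67% to 24.1% by chromosome) and 65.2% of serum bases (48.0% to 81.8%). So unmarked bases of chromosomes 6 and 8 had TDG KD values within the range of serum bases elsewhere, and outside the range of unmarked bases.

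In the PKCi and SRCi lists the unmarked stretches of these chromosomes had higher TDG KD coverage than unmarked or opposite bases elsewhere. In the PKCi list unmarked bases had 55.2% on chromosome 6 and 74.5% on chromosome 8, against 15.4% (5.75% to 29.5%) for unmarked and 32.6% (18.3% to 54.1%) for PKCi bases elsewhere. In the SRCi list they had 61.6% and 82.8%, against 11.8% (5.03% to 26.5%) for unmarked and 32.8% (18.6% to 53.8%) for SRCi bases. In both lists the values of chromosomes 6 and 8 lay above every single autosome's value for unmarked or opposite bases. The states come from the lists that chose the chromosomes, and they hold unlike shares of sequence. Elsewhere the PKCi and SRCi sides hold 84.3% and 86.1% of the length, so their TDG KD values lie near the 29.8% of those autosomes as a whole. This ranking is therefore a description, and nothing is read from it.

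**Figure D4:**
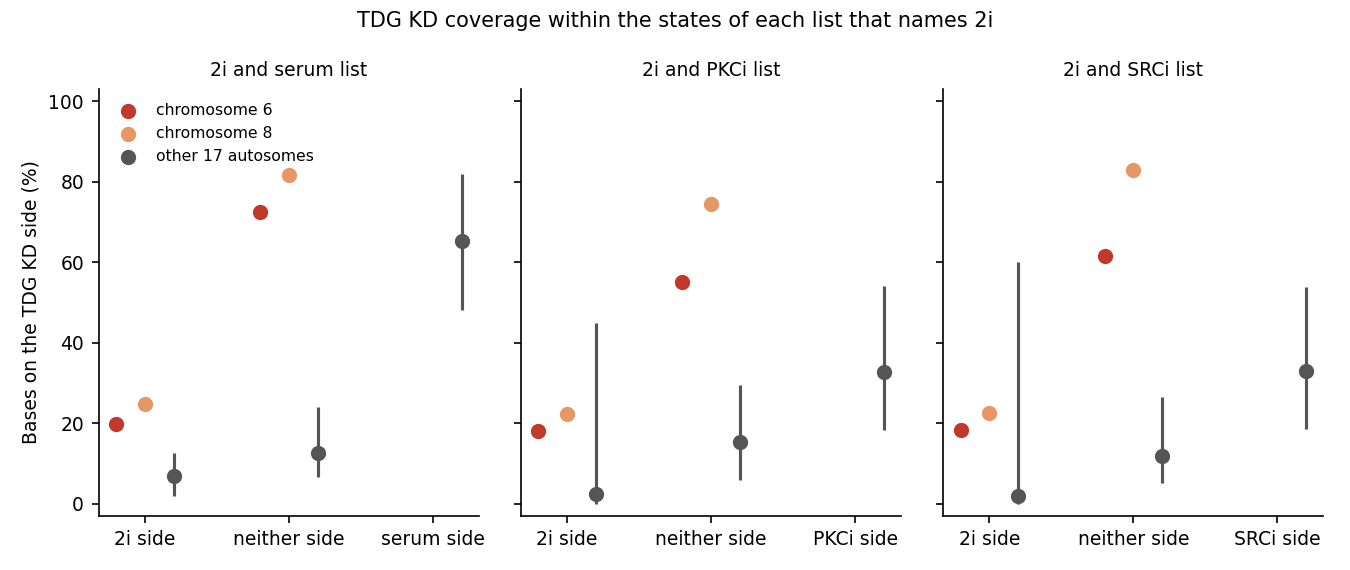
Share of bases (%) on the TDG KD side within the 2i side, neither side and the opposite side of each list that names 2i, for chromosomes 6 and 8 (colored points) and for the other 17 autosomes together (gray point, with a line from the lowest to the highest single autosome). Bases on neither side have 55.2% to 82.8% on chromosomes 6 and 8 and 11.8% to 15.4% elsewhere, and the opposite side is left out for chromosomes 6 and 8, where it holds little beyond empty blocks.

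Rank order over 1 Mb windows described the same pattern. Net 2i coverage, the 2i side minus the opposite side, had a Spearman's rho with TDG KD coverage of -0.82 over the 147 windows of chromosome 6 and -0.74 over the 129 of chromosome 8 in the serum list, and the other 17 autosomes ran from -0.86 to -0.60. In that list both chromosomes lay within the range of the others. In the PKCi list rho was -0.66 and -0.67, where the others ran from -0.38 to 0.09, and in the SRCi list it was -0.71 and -0.71, where the others ran from -0.43 to -0.02. Net coverage in these lists is mostly the 2i side on chromosomes 6 and 8, and almost only minus the opposite side elsewhere. The choice of the chromosomes brought this about, so unlike quantities stand beside each other and nothing is read from the contrast. With DNMT1 KO, rho in the serum list was -0.22 on chromosome 6 and -0.09 on chromosome 8, inside the range of -0.28 to 0.27 elsewhere. In the PKCi list it was -0.10 and 0.0039, against 0.02 to 0.61 elsewhere, and in the SRCi list -0.11 and -0.08, against 0.03 to 0.58. With DNMT1 control, rho in the serum list was 0.0077 and -0.06, inside the range of -0.47 to 0.05. In the PKCi list it was -0.05 and -0.10, against -0.65 to -0.26, and in the SRCi list -0.06 and -0.06, against -0.64 to -0.21. Over 1 Mb windows both chromosomes lay within the range of the others in the serum list, for DNMT1 as for TDG. In the PKCi and SRCi lists they lay outside it. Over 5 Mb windows this held for TDG but not for all DNMT1 values. DNMT1 KO in the PKCi list was then -0.20 and 0.11, inside -0.29 to 0.77 elsewhere. On chromosome 8, DNMT1 KO in the SRCi list (0.12) and DNMT1 control in both lists (-0.32 and -0.34) were also inside. On chromosome 6 these last values lay outside the range. Neighbouring windows are not independent and share base composition, so these are descriptions.

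The TKO list marked its control side on chromosome 6 in a pattern of its own. The TKO side held 12 of 134 members on chromosome 6 and 41 of 267 on chromosome 8, against 12.8% over all chromosomes. TKO control covered 47.9% of chromosome 6 and 37.0% of chromosome 8, the 2nd and 4th highest of the autosomes, where the highest was chromosome 11 with 97.1% and the lowest of the others 16.9%. On chromosome 6 the windows at least 50% covered by TKO control included an unbroken run of 52, chr6:46000001-98000000, a feature chosen after its values were seen. TKO control covered 85.1% of the run and 27.3% of the windows outside it. The longest such run was 5 windows on chromosome 8 and 1 to 5 on other autosomes, except chromosome 11, where all 119 windows passed.

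The run had a window of intermediate coverage at each edge. TKO control covered 2.2% of chr6:44000001-45000000 and 36% of the next window, and then 80.7%, 56.4% and 50.9% of the first 3 windows of the run, the last barely past the bound of 50%. At its distal edge it covered 84.9% of chr6:97000001-98000000, 46.2% of the next window and 8.5% of chr6:99000001-100000000, followed by 25.4% of chr6:100000001-101000000. The 38 TKO control domains that meet the run had a median length of 713.5 kb, and the 84 outside it 214 kb. The longest were chr6:78169001-83828000 of 5659 kb and chr6:51079001-56081000 of 5002 kb.

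The other lists had similar coverage inside and outside the run. The 2i side of the serum list covered 67.5% of the run and 70.5% of the windows outside it, TDG KD 38.8% and 34.0%, and DNMT1 control 41.3% and 42.3%. The 2i side of the PKCi list covered 47.6% and 54.6%. The 3 windows in which the serum and PKCi lists differed most lie within the run, and TKO control covered 95.2%, 78.6% and 69.7% of them.

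**Figure D5:**
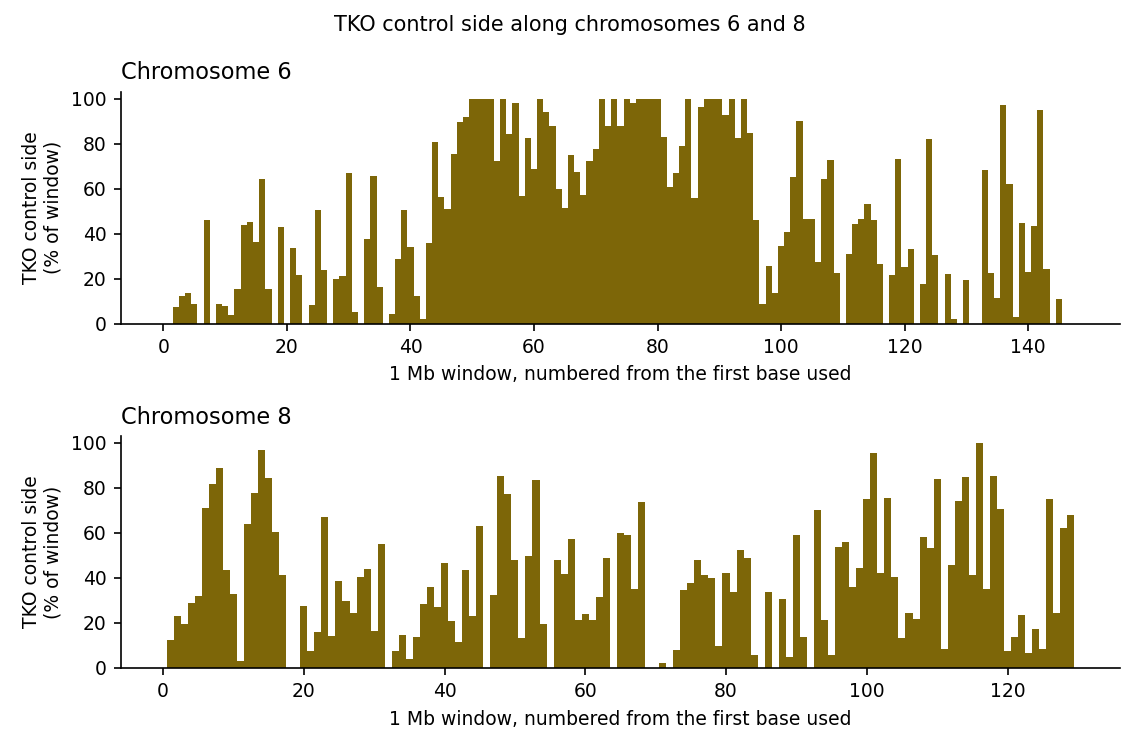
Share of each 1 Mb window (%) covered by the TKO control side, against the number of the window counted from the first base used, for chromosome 6 (above) and chromosome 8 (below). On chromosome 6 a block of 52 neighbouring windows stands at 50% or more with a mean of 85.1%, while chromosome 8 has no run longer than 5.

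Low and high 2i windows did not part the TKO list in one direction. Mean TKO control coverage was 52.7%, 45.3% and 49.1% in low, between and high windows of chromosome 6, and 29.1%, 33.4% and 43.2% on chromosome 8 (34.2% in low windows without the empty blocks). It reached 50% in 9 of 19, 32 of 71 and 27 of 57 windows of chromosome 6 and in 6 of 23, 13 of 48 and 18 of 58 of chromosome 8, against 22.9% of all autosomal windows. The difference of high minus low windows turned sign with the window size on chromosome 8 (-8.27 points in 5 Mb windows) and with stricter classes on chromosome 6 (21.3 points), so no direction is given. TKO domains were few, with a median length of 10.5 kb on chromosome 6 and 16 kb on chromosome 8, and 11 of 12 and 31 of 41 met a 2i domain of the serum list. The 2i side of that list held 88.2% and 69.6% of their bases, and 69.4% and 65.6% of the chromosomes. On chromosome 8 the 2i side of the PKCi and SRCi lists held 57.3% and 61.9% of TKO bases. It held 58.4% and 63.9% of that chromosome, so TKO bases there lay in 2i domains about as often as any base.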

How the data were processed

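Per the submitters' processing notes, the authors used Bowtie2 2.0.6 and the mm9 build. They deposited 6 lists of domains, each from a pair of libraries. How domains were called and whether depth was scaled is not given in the sources used here. A deposited line gives a region, the enriched library and a pair of the authors' own scores with no stated unit. A higher signed score points to the library named first, around an offset that is not 0. Each list was turned into covered 1 kb bins per side, from 3000 kb to the last base any list reaches (149517000 on chromosome 6, 131738000 on chromosome 8). Windows of 1 and 5 Mb start there, and a last shorter window was kept if at least 50% long. Python 3.11.15, numpy 2.4.6, pandas 2.3.3, scipy 1.17.1 and matplotlib 3.10.9 were used, and coverage was checked on simulated domains. The chromosomes, lists and classes were chosen with earlier results of these data known. Named regions were, per chromosome, the longest and highest-scoring domains per list and side, the 3 lowest and 3 highest 5 Mb windows, runs of 3 or more low windows and the 3 longest shared stretches. With 1 library per condition nothing was tested. Coordinates are 1-based on mm9. No mm9 sequence or gene annotation was used, so no region is tied to a gene.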

Additional observations from a re-analysis of the deposited data

How the results depend on the processing

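Across 26 results, 70 of 92 alternative values moved by less than a Wilson 95% interval with Mb or windows as its n or, for counts, less than 1.5 times. That interval takes Mb or windows as independent, which neighbours are not. Some values could not move, as no gap between 2i domains in the PKCi and SRCi lists was short enough to merge. Keeping the upper 50% of scores or a bound of 75% can only lower a value. The tally is a description and does not measure how firm the results are. With only the upper 50% of scores per side there were 278, 141 and 110 2i domains on chromosome 6 in the serum, PKCi and SRCi lists and 241, 98 and 78 on chromosome 8, which covered 19.7%, 14.1% and 11.6%, and 32.3%, 12.5% and 12.0%. At a bound of at least 75% covered, 48.3%, 17.2% and 31.0% of the 5 Mb windows of chromosome 6 passed, and 42.3%, 38.5% and 42.3% of those of chromosome 8, against 72.4%, 48.3% and 58.6%, and 73.1%, 65.4% and 73.1%, at 50%. For high minus low windows, DNMT1 control went from -17.2 to -46.0 points on chromosome 6 with classes under 10% and at least 90%, and from -19.3 to -42.8 on chromosome 8 in 5 Mb windows. With the settings exchanged it shrank, to -4.99 on chromosome 6 in 5 Mb windows and to -5.99 on chromosome 8 with the stricter classes, and it was -33.1 on chromosome 8 without empty blocks. TKO control went from -3.57 to 21.3 on chromosome 6 with the stricter classes and from 14.1 to -8.27 on chromosome 8 in 5 Mb windows. The strict low class of chromosome 6 held 1 window, and that of chromosome 8 held 8. Those 8 included the windows starting at 20000001, 21000001 and 57000001, which lay 96.2%, 100% and 90.9% in empty blocks. DNMT1 control and TDG KD covered 0% of each, so these windows shrink both differences under the stricter classes. What else moved the TKO and DNMT1 values was not tested. TDG KD stayed negative, between -98.0 and -76.2 points on chromosome 6 and between -88.3 and -59.2 on chromosome 8. The planned count of 2i domains that meet across the lists naming 2i, and Spearman's rho between their coverage, were not run. The reason is that the lists may share a 2i library, a limit that also holds for the shared stretches and window differences above. No paired analysis was possible because every group holds 1 sample. Depth, input and copy number were not analysed here, so how firmly a domain was called is not known.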

Other observations

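A few places on chromosomes 6 and 8 carried domains with scores far from those of their neighbours in several lists, and are given as values. On chromosome 8, the stretch chr8:19853001-20038000, of 185 kb, ends where the empty block of 2001 kb begins. It was a 2i domain with the same ends in all 3 lists that name 2i, with signed scores of -133 in the serum list (where lower is toward 2i), 87.5 in the PKCi list and 92.7 in the SRCi list. Nearby, the 2i domain chr8:19641001-19803000 of the serum list had -87.6, and those ending at the same base in the PKCi and SRCi lists had 45.9 each. Within the stretch of 185 kb, chr8:19982001-19985000, of 3 kb, was a domain of DNMT1 KO with a signed score of -92.1, of TDG KD with -21.0 and of TKO control with 2.73.

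Single bins of 1 kb stood out in the same manner. At chr6:103599001-103600000 the DNMT1 list had a DNMT1 KO domain with a signed score of -99.2 and the TDG list a TDG control domain with 58.6, inside 2i domains of all 3 lists. Those 2i domains had -19.8, 14.3 and 14.3 in the serum, PKCi and SRCi lists, and a TKO control domain there had -0.729. At chr8:73689001-73690000 there was a DNMT1 KO domain with -30.1, a TDG control domain with 22.6 and a TKO domain with -18.8, also inside 2i domains of all 3 lists. A longer place, chr8:22612001-22670000 of 58 kb, had the same ends in 3 lists, as a domain of DNMT1 control with 1.59, TDG KD with 0.757 and TKO with -7.42. Each place was picked because at least 1 of its domains is among the longest or highest-scoring of its side on the chromosome, so it was picked by the values shown.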
